A study of Mus musculus with 8 samples.

Results

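Semaphorins, plexins and neuropilins form 1 ligand and receptor system, and 9 of its genes are described here in activated mouse CD4 T cells with and without Bcl6: the coreceptor genes Nrp1 and Nrp2, the ligand genes Sema4a, Sema4b, Sema4d and Sema7a, and the receptor genes Plxnb2, Plxnc1 and Plxnd1. They were picked by symbol from the 19938 genes of the array with these genotype differences known. The differences of the 9 are therefore given as a description, and passing a threshold is not read as evidence for any of them. Naive CD4 T cells, which have not met antigen, were sorted from mice whose T cells alone had lost Bcl6 (genotype T cell-specific conditional Bcl6-/-, called Bcl6 cKO here, n = 4) and from wild-type mice (WT, n = 4). Cells of both groups were activated through CD3 and CD28, the T cell receptor complex and its costimulator, by antibody for 24 hours before RNA was taken, and each was hybridised to 1 Affymetrix whole-transcript array. The labels name neither the Cre line behind the deletion nor the age of the mice, and nothing says which samples came from separate animals, so errors measure the spread between these samples.

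Semaphorins are extracellular signals, first found as guides of growing axons and later in the immune system, where membrane-bound members pass between T cells, B cells and dendritic cells. Plexins are their signalling receptors. A plexin carries a GTPase-activating domain for small GTPases of the Ras and Rap family inside the cell and acts on the actin skeleton and on integrins. Neuropilins have a short intracellular tail without enzyme activity and serve as coreceptors, both for secreted semaphorins with plexins and for vascular endothelial growth factors. In mouse T cells Nrp1 is best known as a surface marker of regulatory T cells made in the thymus. Bcl6 is a transcriptional repressor that directs follicular helper T cells.

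The genotype groups differed in sex. Signals of Xist, the X-inactivation RNA, and of Kdm5d, Uty and Eif2s3y on the Y chromosome marked Bcl6 cKO replicate 1 and WT replicates 1 to 3 as male, and Bcl6 cKO replicates 2 to 4 and WT replicate 4 as female. For the 9 genes, values within each sex are therefore given beside the pooled ones, in the text or in a figure. Other genes have them only where stated. Each such value rests on a lone array of 1 genotype. WT replicate 4 also had the lowest array weight of the 8 in limma (0.367, next lowest 0.759). The signal of Bcl6 itself was 9.05, 8.67, 8.83 and 8.40 (log2) in Bcl6 cKO, against 8.47, 8.33, 8.56 and 8.10 in WT. The probes read no drop in the knockout group, and as the labels do not say which exons were removed, this checks nothing about the labels. Of the CD4 T cell markers, 8 of 9 were measured, with mean signals per gene between 10.96 and 13.15. Arrays have no read depth, and their number limits the precision. In a bulk sample, fewer cells of a type and less RNA per cell cannot be told apart.

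The promoters of the pair of neuropilin genes and of Sema4a are shown first, since these genes carry the contrast between members that differed between the genotypes and a close relative that differed less. Each is the 250 bases before the gene's RefSeq start site in GRCm38.p6, written 5′ to 3′ on the gene's strand, with CG dinucleotides in capitals. Nrp1 lies at chr8:128358823-128359072 (plus strand), Nrp2 at chr1:62703067-62703316 (plus strand) and Sema4a at chr3:88458885-88459134 (minus strand, the window with the most CG of its 4).
Nrp1: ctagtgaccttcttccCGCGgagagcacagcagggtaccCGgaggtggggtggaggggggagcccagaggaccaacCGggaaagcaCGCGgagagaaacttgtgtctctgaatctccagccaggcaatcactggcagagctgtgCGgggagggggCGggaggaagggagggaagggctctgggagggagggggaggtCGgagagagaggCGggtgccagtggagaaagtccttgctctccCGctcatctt
Nrp2: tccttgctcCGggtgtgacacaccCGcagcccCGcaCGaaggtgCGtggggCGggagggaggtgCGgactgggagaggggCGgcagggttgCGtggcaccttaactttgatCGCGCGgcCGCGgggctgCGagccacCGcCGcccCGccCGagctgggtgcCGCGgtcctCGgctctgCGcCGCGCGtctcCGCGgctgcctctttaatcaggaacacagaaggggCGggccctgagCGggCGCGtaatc
Sema4a: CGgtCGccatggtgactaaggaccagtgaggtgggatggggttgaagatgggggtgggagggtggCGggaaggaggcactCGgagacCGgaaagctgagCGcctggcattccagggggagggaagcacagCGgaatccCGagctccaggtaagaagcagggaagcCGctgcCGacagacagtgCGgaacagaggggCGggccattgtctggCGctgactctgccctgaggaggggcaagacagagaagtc
The Nrp1 window held 11 CG dinucleotides and the Nrp2 window 32, against 13 in that of Sema4a and a median of 6 over 32851 such windows of the reference. The Sema4a window was picked for its CG count. With 50 bases after the start site included, it held 14 and the other Sema4a windows 7, 5 and 4, against a median of 7. The G and C content was 64.4% for Nrp1, 72.4% for Nrp2 and 64.0% for Sema4a, with a median of 52.4% over all windows. RefSeq windows were matched for all 9 genes, 16 in all. In windows reaching 250 bases before and 50 after a start site, the core of the Bcl6 binding sequence TTCCTAGAA was found on either strand in none of the 16 and in 0.411% of all 32851 windows. The looser TTCNNNGAA, which contains the first motif and is also bound by STAT factors, was likewise in none of the 16 and in 8.30% of all windows. This says only that these letters are not in these windows.

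Nrp1, the neuropilin that pairs with plexins for secreted semaphorins and with receptors of vascular endothelial growth factor, had the largest difference of the 9. Its signal was 7.54, 8.05, 8.03 and 8.08 (log2) in Bcl6 cKO, against 7.29, 7.03, 6.91 and 7.21 in WT. The groups did not overlap, and Bcl6 cKO replicate 1, the male one, lay below the other Bcl6 cKO arrays and nearest to WT. The means were 7.92 ± 0.26 in Bcl6 cKO and 7.11 ± 0.17 in WT (SD, n = 4 each), a log2 difference of 0.82 (95% confidence interval 0.54 to 1.09), or 1.76-fold. Within females the difference was 0.84, within males 0.46, and with sex as a term in the fit 0.65. Nrp1 was the 1 member past an adjusted p of 0.05 in limma, where 0.105% of all genes passed as higher, and none of the 9 passed as lower, where 0.115% of all genes did. Since that contrast was known when the genes were picked, nothing is read from the count. The same holds for whether Nrp1 passes, here and in the other fits. Nrp1 missed the threshold with a sex term, and in the 8 fits that leave out 1 array it passed only without Bcl6 cKO replicate 1.

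Nrp2, the paralog that serves other secreted semaphorins and the lymphatic growth factor Vegfc, did not follow Nrp1. Its signal was 6.35, 6.48, 6.60 and 6.50 in Bcl6 cKO, against 6.43, 6.36, 6.32 and 6.50 in WT. The groups overlapped across nearly their whole range, and the log2 difference was 0.08 (95% confidence interval -0.06 to 0.22). These were the dimmest readings among the 9. The Y-linked genes, which female cells lack, read between 4.58 and 5.83 on the female arrays, which gives a rough idea of background only, as probes differ in brightness.

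Among the ligands, Sema4a was lower in Bcl6 cKO. This membrane semaphorin is known in mice as a costimulator made by dendritic cells and activated T cells, and as a ligand of Nrp1 on regulatory T cells. Its signal was 8.27, 8.30, 8.14 and 7.92 in Bcl6 cKO, against 8.52, 8.62, 8.44 and 8.48 in WT, and every Bcl6 cKO array lay below every WT array. The means were 8.16 ± 0.17 in Bcl6 cKO and 8.52 ± 0.08 in WT (SD, n = 4 each), a log2 difference of -0.36 (95% confidence interval -0.54 to -0.17), which is 1.28-fold. The difference kept its sign within females (-0.36) and within males (-0.26). On the cluster kept for each gene, Sema4a and Nrp1 were the 2 members whose groups did not overlap, Nrp1 above and Sema4a below WT. Over all genes 2.33% lay apart with Bcl6 cKO above and 3.64% with Bcl6 cKO below, 5.97% together.

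**Figure D1:**
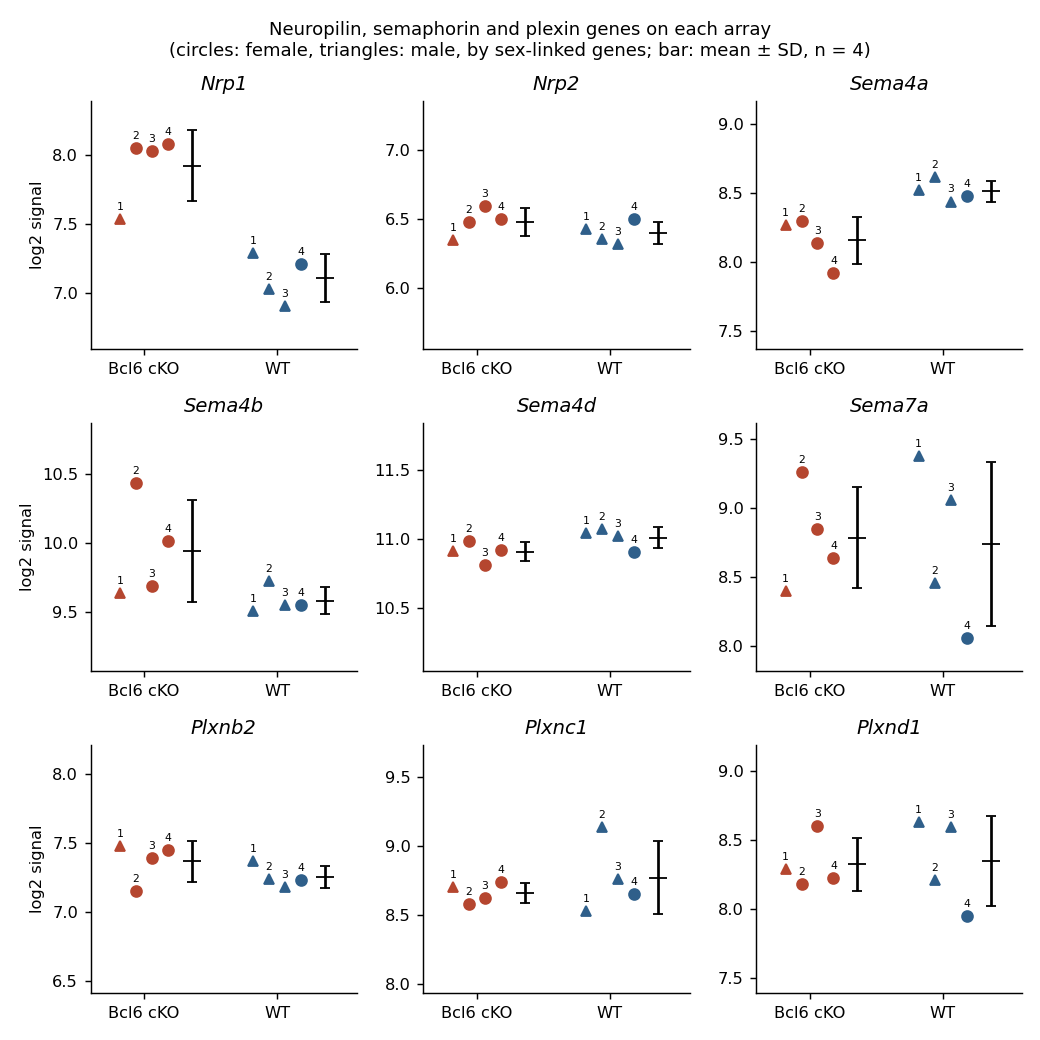
Log2 signal of the 9 genes on each array, with Bcl6 cKO arrays on the left and WT arrays on the right of each panel. Numbers are the replicates of the labels, circles and triangles the female and male arrays, bars the mean ± SD of 4 arrays, and every panel spans the same height on the log2 scale. Nrp1 separates the genotypes upward and Sema4a downward, and the other 7 genes overlap.

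Sema4b, a membrane semaphorin found on T cells and known in mice to hold back basophils, had an uneven pattern. Its signal was 9.64, 10.44, 9.69 and 10.02 in Bcl6 cKO, against 9.51, 9.73, 9.55 and 9.55 in WT. Bcl6 cKO replicates 2 and 4 stood above all WT arrays, while replicates 1 and 3 lay within the WT range. The log2 difference was 0.36 (95% confidence interval 0.03 to 0.69), with an SD of 0.37 in Bcl6 cKO and 0.10 in WT (n = 4 each). It was 0.50 within females and 0.04 within males, and without Bcl6 cKO replicate 2 the pooled value was 0.20.

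Sema4d, also called CD100, is the semaphorin long known from resting T cells, which acts on plexin B1 and on CD72 of B cells. It differed little. The signal was 10.91, 10.98, 10.81 and 10.92 in Bcl6 cKO, against 11.04, 11.07, 11.02 and 10.90 in WT, where replicate 4 alone lay within the Bcl6 cKO range. The log2 difference was -0.10 (95% confidence interval -0.23 to 0.02). Sema4d was the 1 member read by 2 transcript clusters. The dimmer one was used elsewhere only where a gene's clusters were averaged. It read 8.28, 8.29, 8.37 and 8.35 in Bcl6 cKO, against 8.43, 8.45, 8.40 and 8.49 in WT. On that cluster every Bcl6 cKO array lay below every WT array, with a difference of -0.12, so the clusters disagree on whether the groups overlap.

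Sema7a, a lipid-anchored semaphorin that T cells use to stimulate monocytes through integrins, varied most between arrays of the same genotype. Its signal was 8.40, 9.26, 8.85 and 8.64 in Bcl6 cKO, against 9.38, 8.46, 9.06 and 8.06 in WT. Both groups spread widely and overlapped, and WT replicates 1 and 3 were high and WT replicates 2 and 4 low. The log2 difference was 0.05 (95% confidence interval -0.54 to 0.63), an interval too wide to exclude a change of the size seen for Sema4a in either direction. Within females the difference was 0.86, which rests on the low WT replicate 4, and within males it was -0.57, which rests on Bcl6 cKO replicate 1. These 2 values were not shown to differ by an interaction term of genotype and sex (limma, adjusted p = 0.370 over all genes).

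Of the receptors, none separated the genotypes. Plxnb2, a receptor of membrane semaphorins that germinal centre B cells also use, read 7.48, 7.15, 7.39 and 7.45 in Bcl6 cKO, against 7.37, 7.24, 7.18 and 7.23 in WT. Bcl6 cKO replicates 1, 3 and 4 lay above the WT arrays and replicate 2 below them all, with a log2 difference of 0.11 (95% confidence interval -0.06 to 0.28). Plxnc1, the plexin that binds Sema7a, read 8.70, 8.58, 8.62 and 8.74 in Bcl6 cKO, against 8.53, 9.14, 8.76 and 8.65 in WT. WT replicate 2 stood high, and the log2 difference was -0.11 (95% confidence interval -0.36 to 0.14), or 0.01 without that array.

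Plxnd1, a plexin that guides the migration of developing thymocytes through Sema3e, read 8.29, 8.18, 8.60 and 8.22 in Bcl6 cKO, against 8.63, 8.21, 8.59 and 7.95 in WT. As for Sema7a, WT replicates 1 and 3 were the high ones and WT replicate 4 the lowest. The log2 difference was -0.02 (95% confidence interval -0.35 to 0.30), with 0.38 within females and -0.19 within males. Over the 9 genes, 5 were above and 4 below WT, with a median log2 difference of 0.05, while over all 19938 genes 52.1% were above WT and the median difference was 0.003. The 9 genes had no common direction, and 6 of them differed by less than 0.12 on the log2 scale.

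**Figure D2:**
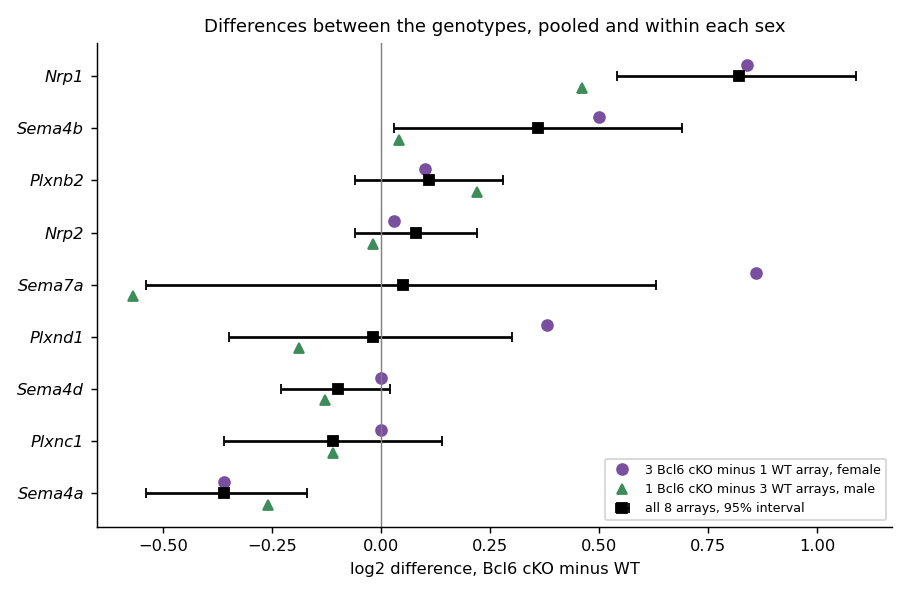
Log2 difference of Bcl6 cKO minus WT for each of the 9 genes. Squares with bars are the values over all 8 arrays with 95% confidence intervals, circles the differences among female arrays and triangles those among male arrays. Nrp1 keeps a positive and Sema4a a negative value in both sexes, and Sema7a and Plxnd1 have opposite signs in the sexes.

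How much the genes varied within a genotype was compared as well, and the chosen members were spread widely on this measure. Genes that vary more also reach larger differences by chance. Picking with the differences known can therefore favour a large SD. The other semaphorin and plexin genes are not ranked here, so the ranking says nothing about the family as a whole. The pooled within-genotype SD was 0.49 for Sema7a, 0.27 for Sema4b and Plxnd1, 0.22 for Nrp1 and 0.19 for Plxnc1. These 5 lay above the 90th percentile of all genes (SD 0.16), and Sema7a at the 99.6th percentile. Sema4d had an SD of 0.07 and Nrp2 of 0.09, below the median of all genes (0.093). The percentiles take no account of signal level, and sex and any difference between replicates are part of the SD.

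**Figure D3:**
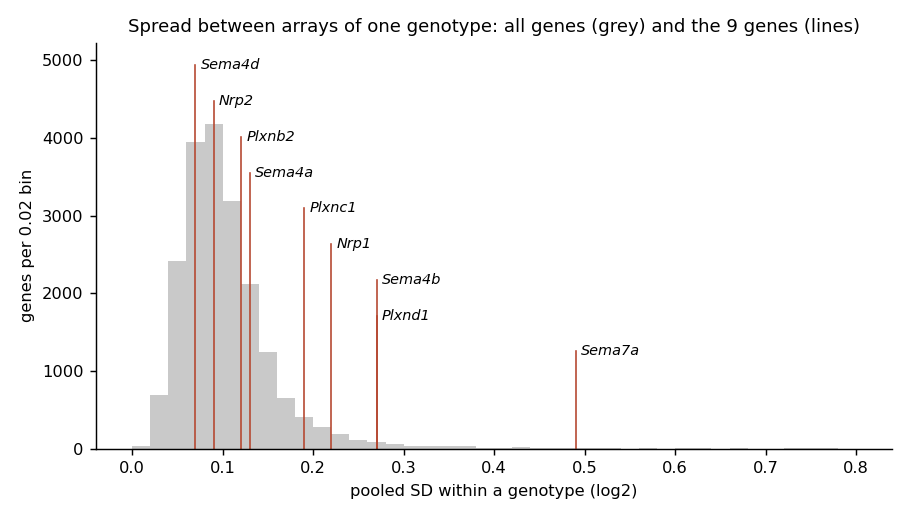
Pooled SD of the log2 signal within a genotype. Grey bars count all genes in bins of 0.02 (24 genes at 0.8 or above are not drawn), and lines mark the 9 genes, whose height has no meaning. Sema7a lies far in the upper tail at 0.49, and Sema4d at 0.07 near the peak.

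Differences between female and male arrays were also fitted, with genotype in the same fit. The groups differed in sex, so the pooled genotype differences known at the choice hold part of any sex difference. The test is therefore not independent of how the genes were picked, and nothing is read from its counts. None of the 9 passed in limma over all genes, where 0.0301% of genes did (6 of 19938), and 2 of the 9 had an unadjusted p below 0.05, against 8.28% of all genes (1650 of 19938). Nrp1 was higher on female arrays by 0.32 on the log2 scale (95% confidence interval 0.08 to 0.56, limma adjusted p = 0.589). Nrp2 was higher by 0.15 (0.02 to 0.29, limma adjusted p = 0.589). For the other 7 the intervals included 0. Sex and genotype were unevenly crossed, so both estimates lean on Bcl6 cKO replicate 1 and WT replicate 4.

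The rest of the pathway was read from 3 lists with 80 entries, of which 77 matched a gene of the array. None of the 77 passed in limma in either direction, while 0.221% of all genes did. At an unadjusted p below 0.05 there were 15 of 77 (19.5%), against 10.8% of all genes. The lists were chosen with earlier results of these data known, so nothing is read from these shares. By sign, 32 lay above and 45 below WT, with a median log2 difference of -0.02.

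The other semaphorin and plexin genes, 22 in number, had log2 differences between -0.18 and 0.22, with 10 above and 12 below WT, and no gene had separate groups. Plxna1, a plexin that pairs with neuropilins, read 8.99, 9.35, 9.09 and 9.17 in Bcl6 cKO, against 8.86, 9.03, 9.02 and 8.81 in WT (difference 0.22, limma adjusted p = 0.360). Its difference was 0.39 within females and 0.02 within males. Sema4f had a difference of -0.18 (limma adjusted p = 0.460), and Plxnb1, the receptor of Sema4d, of -0.12 (limma adjusted p = 0.475). The secreted semaphorins Sema3a to Sema3g, most of them ligands of the neuropilins, were among those with no call.

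Among 23 partner ligands and receptors, 10 were above and 13 below WT, and none passed. Tgfbr2, the ligand-binding receptor chain of transforming growth factor beta, a cytokine that neuropilins also bind, came closest. It read 10.65, 10.57, 10.45 and 10.44 in Bcl6 cKO, against 10.84, 10.90, 10.81 and 10.98 in WT. All Bcl6 cKO arrays lay below all WT arrays, and the log2 difference was -0.35 (95% confidence interval -0.50 to -0.21, limma adjusted p = 0.0561). In 5 of the other settings tried it passed, with the lowest adjusted p at 0.0294 and the highest at 0.857. Itgb1, the integrin chain in the Sema7a receptor, had a difference of 0.30 (limma adjusted p = 0.226), with 0.59 within females and 0.03 within males. L1cam, an adhesion molecule that binds Nrp1 in neurons, had -0.41 (limma adjusted p = 0.284), with -0.75 within females and -0.30 within males.

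Of 32 measured intracellular effectors, 12 were above and 20 below WT, and none passed. Farp1 encodes a guanine nucleotide exchange factor with a membrane-binding FERM domain, related to the plexin effector Farp2. It read 8.51, 8.33, 8.86 and 8.61 in Bcl6 cKO, against 8.17, 7.67, 8.01 and 7.77 in WT. Each Bcl6 cKO array lay above each WT array, and the log2 difference was 0.67 (95% confidence interval 0.39 to 0.95, limma adjusted p = 0.0664), with 0.83 within females and 0.56 within males. Mical1, an enzyme that takes actin filaments apart below plexins, had a difference of -0.27 (limma adjusted p = 0.157), and Crmp1, a collapsin response mediator, of -0.32 (limma adjusted p = 0.231). Over the 3 lists, 3 of 77 genes (3.90%) had all Bcl6 cKO arrays above WT, against 2.33% of all genes, and 5 of 77 (6.49%) had all below, against 3.64%. Nothing is read from these shares either, as the lists were chosen with earlier results known.

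**Figure D4:**
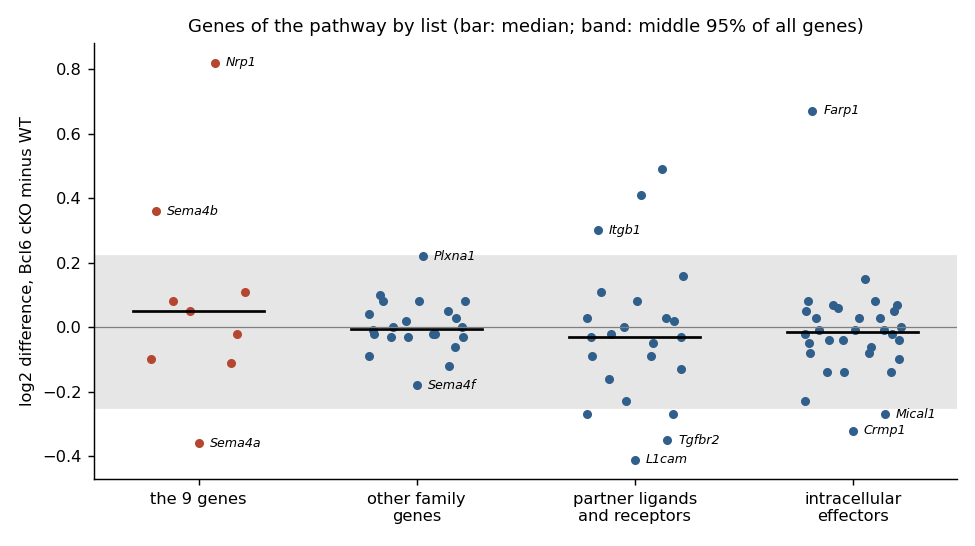
Log2 difference of Bcl6 cKO minus WT for the 9 genes and for the 3 lists of other pathway genes. Each point is a gene, bars are medians and the grey band holds the middle 95% of all genes (-0.25 to 0.22). Farp1 at 0.67 and Nrp1 at 0.82 lie highest, and the medians of all 4 groups lie near 0.

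Nrp1 also marks regulatory T cells, so the other markers of these cells were read as well. Their part in the Nrp1 value was not tested. Of 9 such markers 1 was above and 8 below WT, with a median log2 difference of -0.12, and none passed in limma. Foxp3, the factor that defines these cells, read 9.17, 9.31, 8.83 and 9.60 in Bcl6 cKO, against 9.86, 9.82, 9.61 and 9.61 in WT. Its groups were separate with Bcl6 cKO below (difference -0.50, limma adjusted p = 0.199), as in 3.64% of all genes. Only the step from 9.60 in Bcl6 cKO replicate 4 to 9.61 in WT kept them apart. Gpr83, a receptor of the same cells, had a difference of -1.20 (limma adjusted p = 0.0664), which passed in 3 of the other settings (adjusted p from 0.00515 to 0.857 over all of them), and Tnfrsf18 of -0.12 (limma adjusted p = 0.482). The mean signal of the 9 markers was between 9.63 and 9.92 on the Bcl6 cKO arrays and between 9.93 and 10.13 on the WT arrays. Gpr83, whose groups were also separate with Bcl6 cKO below, and Foxp3 weigh most in this shift. The rest of the markers had differences from -0.24 to 0.11. The lean below WT was not particular to this list. In the CD4 T cell list 1 gene was above and 7 below WT, with a median of -0.10. The dendritic (1 and 5), endothelial (0 and 5) and CD8 (0 and 2) lists leaned the same way. The myeloid (3 and 3) and natural killer (2 and 2) lists were even, and the B cell list had 4 above and 2 below.

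Markers of other cells that a sort could carry, several of which use neuropilins or semaphorins, were compared over whole lists. The dendritic list (6 genes) had mean signals of 6.40 to 6.44 in Bcl6 cKO and 6.43 to 6.52 in WT. The myeloid list (6 genes) had 6.38 to 6.71 in Bcl6 cKO and 6.43 to 6.57 in WT, and the B cell list (6 of 7 measured) 6.26 to 6.37 in Bcl6 cKO and 6.28 to 6.33 in WT. The endothelial list (5 genes) lay at 6.52 to 6.64 in Bcl6 cKO and 6.67 to 6.81 in WT, where Pecam1, which T cells also express, had a difference of -0.61 (limma adjusted p = 0.156). Pecam1 differed by -0.95 within females and by -0.24 within males. The natural killer list (4 genes) had 4.71 to 4.82 in Bcl6 cKO and 4.81 to 4.91 in WT, and the pair of CD8 chains 8.66 to 8.91 in Bcl6 cKO and 8.91 to 9.13 in WT. The CD8 shift came from 1 of the 2 chains. Cd8b1 read 10.52, 10.56, 10.78 and 10.41 in Bcl6 cKO, against 10.90, 11.12, 11.02 and 11.12 in WT, with every Bcl6 cKO array lower (difference -0.47, limma adjusted p = 0.0541), and it passed in 5 of the other settings (adjusted p from 0.028 to 0.857 over all of them). Cd8a had a difference of -0.02 (limma adjusted p = 0.951). In the other lists the smallest p belonged to Klrd1 for natural killer cells (difference -0.49, limma adjusted p = 0.259, and 0.0138 without Bcl6 cKO replicate 1) and Cd3d for CD4 T cells (-0.17, limma adjusted p = 0.242). For B cells it was Ms4a1 (-0.17), for dendritic cells Zbtb46 (-0.10) and for myeloid cells Itgam (-0.12), with limma adjusted p of 0.484, 0.539 and 0.612. In the fit over all 8 arrays no gene of these lists passed in limma, and their part in the values above was not tested.

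The genes whose profile over the 8 arrays lay nearest to that of Nrp1 were taken by the root mean square distance of values centred on each gene's own mean. They were Ptger2, a receptor of prostaglandin E, at a distance of 0.179, Nek6, a mitotic kinase, at 0.186, and Slc16a10, an aromatic amino acid transporter, at 0.206. Asns, which makes asparagine, followed at 0.210 and the zinc finger gene Zfp593 at 0.220. The median distance over all genes was 0.453, and Nrp1 itself varied by 0.449 about its mean. Like Nrp1, all 5 of these had their lowest Bcl6 cKO reading on replicate 1, which the choice by profile favours. Ptger2, for example, read 7.76, 8.52, 8.26 and 8.19 in Bcl6 cKO, against 7.72, 7.59, 7.53 and 7.79 in WT. They share the 8 arrays and the genotype difference with Nrp1, so the likeness is a description.

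**Figure D5:**
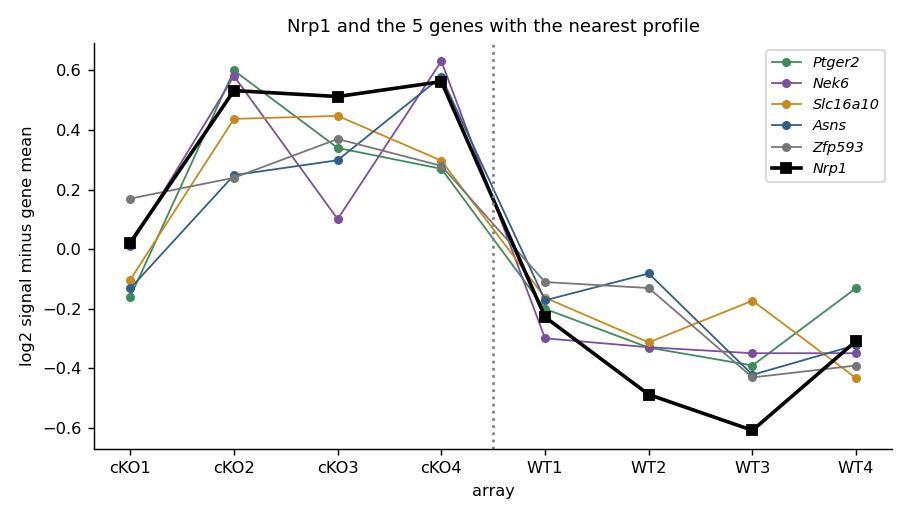
Log2 signal of Nrp1 (black squares) and of the 5 genes with the nearest profile on each array, each minus its own mean over the 8 arrays. Lines only join the points of a gene. Bcl6 cKO arrays are on the left, and in all 6 genes the lowest of them is replicate 1, which the choice by profile favours.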

How the data were processed

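The authors deposited 1 log2 signal for each transcript cluster on each array, made with RMA and Partek per the submitters' processing notes. Their versions and settings, and a genome build, were not given in the sources used here. RMA corrects background, gives all arrays 1 distribution and combines probes, which shrinks differences of dim genes. The log base was inferred from the spread of the values and from RMA's usual output.

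Of 35556 clusters, 21789 have 1 gene symbol in the platform annotation, 1621 several and 12146 none. Only those with 1 symbol were named, and the cluster with the highest mean was kept per gene (999 genes had several), which left 19938 genes.

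Limma 3.58.1 in R 4.3.3 (lmFit, eBayes) compared all 8 arrays with no covariate and no filter. Differences are Bcl6 cKO minus WT. The Benjamini-Hochberg adjustment ran over all genes, with a threshold of 0.05. The fit was tested on simulated data.

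The members and lists were chosen with earlier results of these data known. The text names all 9 members, for each list the genes past the threshold or else up to 3 with the smallest p (3 for the pathway and regulatory T cell lists, both CD8 chains, and 1 for the other marker lists), and the 5 genes nearest to Nrp1. Of the 80 pathway entries 3 were not analysed here. Promoter sequences are RefSeq's, GRCm38.p6.

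Nothing in the labels ties same-numbered samples together, so the comparison was not paired. Other settings tried were variance moderation with trend, array weights, 2 scalings, 2 filters, the mean of a gene's clusters, a replicate block, a sex term, each sex alone and leaving out each array. The female minus male test, the interaction and the comparison of SDs were added after seeing the data.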

Additional observations from a re-analysis of the deposited data

Results flagged for a closer look

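Among 18 genes named in both genotypes, 36 groups of 4 arrays were searched for a single array far from the rest, and chance picks about 1 in 20 such groups. The Nrp1 signal of Bcl6 cKO replicate 1 was 7.54, against 8.03 to 8.08 on the other Bcl6 cKO arrays, a gap of 0.907 of the group's range. The Mical1 signal of the same array was 9.55, against 9.35 to 9.36 on the other Bcl6 cKO arrays, a gap of 0.950 of the range. That array is the male one of its group, and the part of sex in these values was not tested apart from the array.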

How the results depend on the processing

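With variance moderation by trend and robust options 61 genes were lower, with array weights 51, with a filter at the 30th percentile of mean signal 42 and with a filter at the median 52, and in each of these 4 settings 1 pathway gene passed, Tgfbr2 (adjusted p = 0.0294, 0.0446, 0.0499 and 0.0419). After centring arrays on their medians 13 genes were lower, and after quantile normalization 14. In both of these scalings no pathway gene passed. With the replicate number as a block 15 genes were higher and 20 lower, and 1 pathway gene passed, Farp1 (limma adjusted p = 0.0398). Nrp1 missed the threshold in that fit, and the marker Gpr83 passed (limma adjusted p = 0.00515). Deviations of same-numbered arrays from their group means correlated across genes by 0.073, 0.206, 0.203 and 0.205, and 6 of the 8 arrays correlated best with their own number. Not every pair exceeded 0.1, the limit set for taking the numbers as pairs, so a shared replicate effect is a hint from the data and not part of the design. With a sex term 5 were higher and 5 lower. Within male arrays 0 were higher and 0 lower in limma (1074 at an unadjusted p below 0.05), and within female arrays 0 and 0 (2955). Each of those fits has a lone array of 1 genotype, taken to vary like the rest.

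Leaving out 1 array gave 5 to 39 genes higher, 5 to 100 lower and 0 to 1 pathway genes. The highest counts came without Bcl6 cKO replicate 1, where Tgfbr2 passed (adjusted p = 0.0309). The difference of Nrp1 ran from 0.75 to 0.94 in these fits and passed in 1 of the 8. Nrp2 ran from 0.04 to 0.12, Sema4a from -0.40 to -0.28, Sema4b from 0.20 to 0.46, Sema4d from -0.14 to -0.07, Sema7a from -0.18 to 0.26, Plxnb2 from 0.08 to 0.19, Plxnc1 from -0.19 to 0.01 and Plxnd1 from -0.15 to 0.07. Within male arrays the differences of Nrp1 (0.46), Nrp2 (-0.02), Sema4b (0.04) and Sema7a (-0.57) moved by more than the SD, and within female arrays those of Sema4d (0.00), Sema7a (0.86) and Plxnd1 (0.38). The cause was not tested. The filters removed Nrp2 (both) and Nrp1 and Plxnb2 (the median filter), which then have no value.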
